A study of Bos taurus with 12 samples.

Results

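Cattle embryos made in vitro were followed from the blastocyst at Day 7 to the conceptus at Day 13, when the embryo starts to elongate. The comparison was set by the sample titles: 3 arrays of Day 7 and 3 of Day 13 embryos of in vitro origin, which are 6 of the 12 arrays of the series. The embryos had been produced by in vitro fertilisation. The Day 7 group held whole blastocysts that were snap frozen, 25 to a pool. The Day 13 group held conceptuses that had come from such blastocysts, 10 of which were placed in each synchronised recipient heifer; they were recovered, frozen one by one and combined 5 to a pool. The other 6 arrays came from embryos made in vivo after superovulation, at the same days and pool sizes, and were used to estimate the spread and for one comparison of the day effect. RNA of each pool, 75 ng, was amplified in a 2-cycle labelling and hybridised to an Affymetrix bovine array. A value averages the embryos of a pool and all cell types in them, so no embryo or cell type was measured alone. The Day 13 group differs from the Day 7 group in age and in its days inside a recipient. It also differs in pool size and in holding only conceptuses that were recovered after transfer. These differences cannot be told apart. The titles number the pools of a group as biological replicates, and p-values measure the spread between these pools.

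Between these days the hatched bovine blastocyst grows from a sphere to an ovoid and then a filament, and almost all of the added tissue is trophoblast, the outer epithelium that forms the placenta and secretes into the uterine lumen. Its products include interferon tau, the signal by which the conceptus maintains pregnancy in ruminants, the pregnancy-associated glycoproteins (PAG genes) of the aspartic protease family, and trophoblast Kunitz domain proteins (TKDP genes). Beneath it the hypoblast lines the yolk sac, and the epiblast, which forms the body, holds the pluripotent cells.

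The values were deposited log2 intensities of 24016 probe sets that are not array controls. A probe set was called when its adjusted p (limma, Benjamini-Hochberg over all 24016) was below 0.05. Of these probe sets 1804 were called (7.51%), 852 higher at Day 13 (3.55%) and 952 lower (3.96%), and 4613 had an unadjusted p below 0.05. Taking for each gene symbol its brightest probe set gave 9155 genes, of which 986 (10.8%) were called, 458 higher (5.00%) and 528 lower (5.77%). The median log2 difference over all genes was 0, and among the 5798 genes with a group mean above background 17% were called. Shares over all genes given below include the genes at background. A list with most members above background is therefore better set beside the 17%. Levels at or under 3.39 are called background here; this is the 99th percentile over 48 control probe sets for which no RNA had been added, and 41.4% to 42.0% of probe sets exceeded it on each array. Where all arrays of the dimmer group lay at background, the fold is a lower bound computed from the background and is given with "at least". Where the dimmer group's mean lay at background but 1 or 2 of its pools exceeded it, the pools at background were set to it, and the fold is also given with "at least". Beside each bound stands the adjusted p of the fit to the deposited values.

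The 3 Day 13 pools did not lie equally far from Day 7. On a scale where the Day 7 mean is 0 and the Day 13 mean is 1, replicates 1, 2 and 3 of Day 13 had medians of 1.14, 1.03 and 0.827 over the 852 rises and of 1.09, 1.04 and 0.863 over the 952 falls. Replicate 3 was the Day 13 array nearest to Day 7 in 68.5% of the rises and 67.2% of the falls. It correlated with Day 7 arrays at r = 0.948 to 0.962 across probe sets, against 0.912 to 0.940 for the other two, and probe sets are not independent replicates. The 3 Day 13 arrays also differed in the control RNA added before amplification. The mean of 24 probe sets for the poly-A control RNAs was 9.27, 10.5 and 12.99 in Day 13 replicates 1, 2 and 3, against 14.6, 13.34 and 14.15 at Day 7, on the log2 scale. Replicate 3, the array nearest to Day 7 in its genes, was thus also the nearest in this control. Other technical measures differed too. The mean of 18 hybridisation control probe sets was 10.38, 10.84 and 11.96 at Day 13, against 11.87, 11.84 and 12.81 at Day 7. The GAPDH 3 prime minus 5 prime difference was 2.534, 2.612 and 4.165 at Day 13, against 3.405, 4.188 and 3.474 at Day 7. With the poly-A mean as a covariate 197 probe sets were called, 175 of them among the 1804. Without replicate 3, 2898 were called, and with it as the only Day 13 array 902 were called, of which 469 were among the 1804. Leaving out Day 7 replicate 1 or 3 or Day 13 replicate 1 or 2 left 913, 1001, 961 and 967 calls. All 3 Day 13 arrays lay under all Day 7 arrays in the poly-A mean, so this covariate overlaps with the day. A fit with it estimates the day effect less precisely, and a call lost under it cannot tell the control from the day. The part of the control RNA in the day effect was not tested beyond this covariate.

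The 25 largest rises held 5 genes listed as secreted trophoblast products, other secreted and membrane proteins, signalling co-receptors and enzymes. DNASE1L3, a secreted deoxyribonuclease, stood at 2.65, 2.39 and 3.69 at Day 7 and at 13.68, 13.45 and 13.62 at Day 13 (log2 intensities of replicates 1, 2 and 3, the order used for all values below). The Day 13 arrays lay close together, more than 9 log2 units above every Day 7 array. As 1 of the 3 Day 7 arrays exceeded background, the difference was at least 10.09 (limma adjusted p = 1.7e-06). TKDP1 stood at 6.94, 4.23 and 8.04 and rose to 14.40, 15.04 and 14.27, a change of 8.17 ± 1.02 (standard error, SE, n = 3 and 3, adjusted p = 0.00245). The Day 7 pools were spread widely for TKDP1, with replicate 2 the lowest, while all Day 13 pools were near the top of the array's range. TKDP4, another member of that family, was at background in all Day 7 pools and reached 8.33, 9.64 and 7.05, at least 30.9-fold higher (adjusted p = 0.000654). PAG11 was also at background at Day 7 and stood at 12.94, 12.16 and 9.94 at Day 13, at least 313-fold higher (adjusted p = 0.00292). Its 3 Day 13 pools were spread over about 3 log2 units, with replicate 3 the lowest. PAG8 went from background to 10.33, 10.61 and 8.89 (at least 93.7-fold, adjusted p = 3.85e-05). Of 19 PAG genes measured 15 were at background in the means of both days, and of the 4 above it only PAG8 and PAG11 were called. As a share of the 19 this is near the 10.8% of all genes called. PAG genes are close paralogues, so a probe set may also take up signal from other members.

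**Figure D1:**
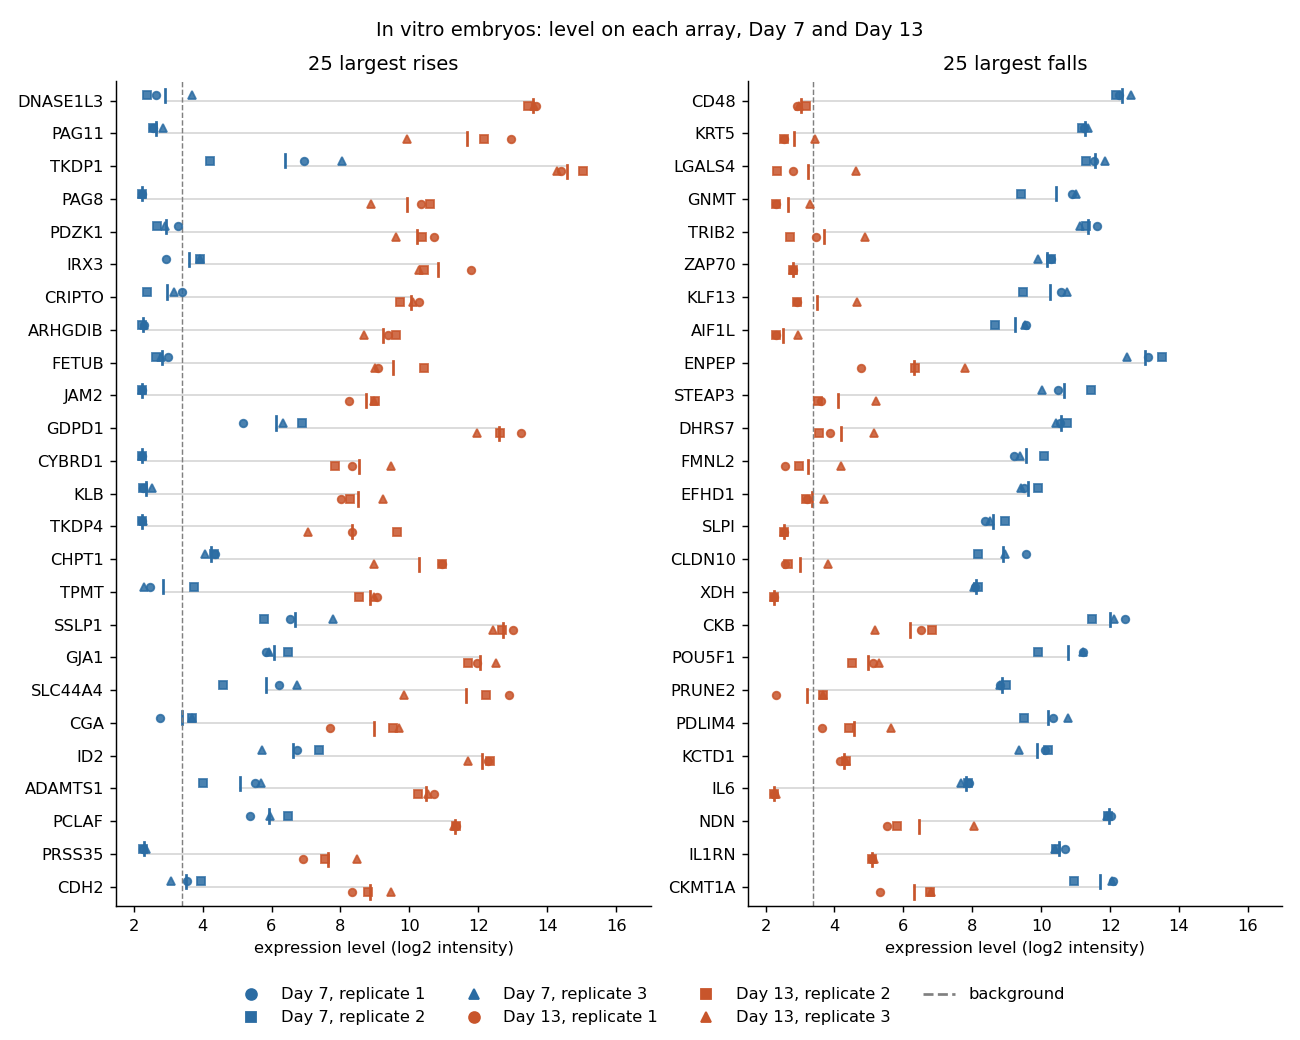
Level of the 25 genes with the largest rises (left) and the 25 with the largest falls (right) on each of the 6 arrays, in log2 intensity; blue symbols are Day 7 and orange ones Day 13, short vertical bars are group means and the dashed line is background at 3.39. In each gene the 3 Day 7 arrays lie apart from the 3 Day 13 arrays, and Day 13 replicate 3 (orange triangles) is the Day 13 array nearest to Day 7 in 36 of the 50 genes.

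Several rises concerned contact between cells and the uptake of solutes. JAM2, a junctional adhesion molecule, was at background in all Day 7 pools and stood at 8.26, 9.01 and 8.98 at Day 13 (at least 41.1-fold, adjusted p = 1.77e-05). GJA1, the gap junction protein connexin 43, stood at 5.84, 6.47 and 5.92 at Day 7 and at 11.95, 11.70 and 12.51 at Day 13, a rise of 5.98 ± 0.38 or 63-fold (adjusted p = 7.54e-05). CDH2, the cell adhesion protein N-cadherin, rose by 5.34 ± 0.29 (adjusted p = 3.59e-05). For each of these the replicates of a day lay close together and far from those of the other day. PDZK1, a scaffold that anchors transporters in apical membranes, was at background at Day 7 and reached 10.70, 10.37 and 9.61 (at least 114-fold, adjusted p = 4.4e-05). CYBRD1, a ferric reductase of iron uptake, went from background to 8.32, 7.84 and 9.47 (at least 35.7-fold, adjusted p = 0.000226). SLC44A4, a transporter of choline and thiamine derivatives, stood at 6.22, 4.59 and 6.73 and rose to 12.89, 12.23 and 9.85 (56-fold, adjusted p = 0.00562). Its Day 13 replicate 3 lay more than 2 log2 units under the other Day 13 pools but above all Day 7 pools.

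Other large rises were those of enzymes, secreted proteins and regulators. CHPT1, which completes the synthesis of phosphatidylcholine, stood at 4.35, 4.33 and 4.08 and rose to 10.94, 10.94 and 8.98 (65.4-fold, adjusted p = 0.000347). GDPD1, a phosphodiesterase that cleaves lysophospholipids, rose by 6.48 ± 0.80 (89.4-fold, adjusted p = 0.00234), and a second probe set for it was called in the same direction. CGA, the alpha subunit shared by the glycoprotein hormones, stood at 2.78, 3.70 and 3.70 and rose to 7.68, 9.53 and 9.71 (at least 41.6-fold, 2 of 3 Day 7 pools above background, adjusted p = 0.00127). Here replicate 1 and not replicate 3 was the lowest of the Day 13 pools. FETUB, the plasma protein fetuin B, was at background at Day 7 and stood at 9.10, 10.43 and 9.0 at Day 13 (at least 69.5-fold, adjusted p = 0.00520). SSLP1, a secreted Ly-6 type protein, rose 64.6-fold (adjusted p = 0.000293), IRX3, a homeobox transcription factor, rose 151-fold (adjusted p = 0.000113) and TPMT, a thiopurine methyltransferase, rose at least 40.5-fold (1 of 3 Day 7 pools above background, adjusted p = 0.00495). ADAMTS1, a secreted metalloprotease, rose by 5.41 ± 0.94 (adjusted p = 0.0114), and PRSS35, a serine protease homologue, went from background to 6.90, 7.54 and 8.47 (at least 19-fold, adjusted p = 0.000299).

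The 25 largest falls took in surface proteins, signalling kinases, cytoskeletal regulators and enzymes of energy metabolism. CD48, a surface protein of the SLAM family, stood at 12.27, 12.16 and 12.62 at Day 7 and at 2.91, 3.17 and 2.97 at Day 13. All Day 13 pools were at background, so the level was at least 497-fold lower (adjusted p = 1.7e-06). ZAP70, a tyrosine kinase best known from T cells, fell from 10.29, 10.29 and 9.91 to background (at least 110-fold lower, adjusted p = 4.1e-07). KRT5, a keratin of basal epithelial cells, stood at 11.24, 11.19 and 11.36 and then at 2.53, 2.53 and 3.44, a fall of at least 232-fold (adjusted p = 3.07e-05). LGALS4, a galectin of epithelia, fell from 11.52, 11.31 and 11.85 to 2.80, 2.32 and 4.62 (at least 217-fold, adjusted p = 0.000264). For KRT5 and LGALS4 Day 13 replicates 1 and 2 were at background and replicate 3 was above it. ENPEP, glutamyl aminopeptidase, stood at 13.10, 13.49 and 12.48 and at 4.78, 6.34 and 7.77 (106-fold lower, adjusted p = 0.00291), so that its Day 13 pools were spread over almost 3 log2 units, and a second probe set was also called lower. TRIB2, a pseudokinase, fell from 11.63, 11.31 and 11.12 to 3.47, 2.70 and 4.89 (203-fold, adjusted p = 8.47e-05). KLF13, a zinc finger transcription factor, fell from 10.56, 9.46 and 10.75 to 2.90, 2.90 and 4.66 (109-fold, adjusted p = 0.00158). In each of these genes the Day 7 pools lay closer to each other than to any Day 13 pool. Day 13 replicates 1 and 2 of KLF13 and replicate 2 of TRIB2 were at background, so these folds rest in part on values under it.

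The falls of enzymes included CKB and CKMT1A, the cytosolic and the mitochondrial creatine kinase. CKB stood at 12.43, 11.47 and 12.12 and at 6.52, 6.84 and 5.18 (56.8-fold lower, adjusted p = 0.00219), and CKMT1A at 12.07, 10.96 and 12.04 and at 5.31, 6.77 and 6.81 (42.1-fold lower, adjusted p = 0.00130). SLC6A8, the creatine transporter, was set beside them after its values were seen, and it fell from 9.09, 7.66 and 9.17 to 3.74, 4.67 and 5.06 (17.7-fold, adjusted p = 0.00202). In each of the 3 genes the Day 7 pools were high, replicate 2 being the lowest of them, and no Day 13 pool reached them. XDH, xanthine dehydrogenase of purine breakdown, fell from 8.07, 8.17 and 8.05 to background (at least 26.1-fold lower, adjusted p = 0.00587). GNMT, glycine N-methyltransferase, which uses up S-adenosylmethionine, fell from 10.89, 9.41 and 11.02 to background (at least 132-fold, adjusted p = 0.000389). STEAP3, a reductase that acts on endosomal iron, fell from 10.49, 11.45 and 10.01 to 3.60, 3.51 and 5.19 (93.6-fold, adjusted p = 0.000254). DHRS7, a short-chain dehydrogenase, fell 83.9-fold (adjusted p = 7.55e-05), and NDN, the imprinted gene necdin, fell 45.4-fold (adjusted p = 0.00124), with Day 13 pools at 5.51, 5.80 and 8.04. IL6, an inflammatory cytokine, had the smallest standard error of the 25, 0.06: it stood at 7.90, 7.87 and 7.68 at Day 7 and at 2.23, 2.23 and 2.31 at Day 13, all at background (at least 21.5-fold lower, adjusted p = 1.95e-09). IL1RN, the antagonist of the interleukin 1 receptor, fell from 10.69, 10.42 and 10.41 to 5.08, 5.08 and 5.14 (42.4-fold, adjusted p = 2.44e-06); 2 Day 13 pools repeat one value, which may be a lower limit of that probe set, so that its fold may be larger than stated.

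All 50 of these genes kept their call when any single one of the 6 arrays was left out, with adjusted p of at most 0.0473, that of ADAMTS1. In 18 of the 50 the dimmer group lay wholly at background. The poly-A control overlaps with the day, so a call lost with it as a covariate cannot be read as an effect of the control. In that fit 32 genes kept their call and 18 lost it, among them PAG11 (adjusted p = 0.159), TKDP1 (0.0557), TKDP4 (0.0537), POU5F1 (0.155), FETUB (0.150), GDPD1 (0.128), SLC44A4 (0.283), ENPEP (0.161) and KLF13 (0.0844). With replicate 3 as the only Day 13 array 40 kept it. Over all called genes, 167 had another probe set above background, 199 in all, and 175 of these (87.9%) differed in the same direction, 64 of them called, against 24 in the opposite direction, 2 of them called. Groups that do not overlap were found in 32.3% of the 15973 probe sets that varied over these arrays and in all 1804 called ones, for which the threshold itself almost requires it, so nothing is read from that count. Of the called probe sets 305 had a dimmer group wholly at background, and 59 repeated one value in the dimmer group above it, as IL1RN did.

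Of 17 measured genes of trophoblast identity 7 rose and 1 fell (41.2% and 5.88%, beside 5.00% and 5.77% over all genes). Their median log2 difference was 0.69, and 5 to 7 rose when single arrays were left out. The median was 0.11 without Day 7 replicate 1, 1.18 without replicate 2 and 1.24 without replicate 3 of that day, and under the poly-A covariate 2 rose, at a median of 0.24. The keratins KRT8 and KRT18 did not pass the test. ASCL2, an imprinted trophoblast transcription factor, stood at 5.08, 5.36 and 5.74 and rose to 10.02, 9.92 and 9.97, a change of 23.9-fold (adjusted p = 3.58e-05). ELF5, a transcription factor of trophoblast progenitors, was at background at Day 7 and stood at 5.22, 6.25 and 4.93 at Day 13 (at least 4.21-fold, adjusted p = 0.00604). ID2, an inhibitor of helix-loop-helix factors, rose from 6.75, 7.38 and 5.73 to 12.29, 12.34 and 11.70 (44.9-fold, adjusted p = 0.00132). In all 3 genes every Day 13 pool lay well above every Day 7 pool. ERRFI1, a feedback inhibitor of the EGF receptor, rose by 1.33 ± 0.20 (adjusted p = 0.00638). TFAP2A, a transcription factor of trophoblast and ectoderm, rose by 4.17 ± 0.77 (adjusted p = 0.0146). KRT19, a simple-epithelium keratin, rose by 2.86 ± 0.69 (adjusted p = 0.0411). TEAD4, a transcription factor of the Hippo pathway, fell by 2.26 ± 0.45 (adjusted p = 0.0191). The calls of TFAP2A and TEAD4 passed in the 2 leave-one-out fits that omitted Day 7 replicate 2 or Day 13 replicate 3, and KRT19 in the latter alone, with adjusted p otherwise reaching 0.0602, 0.0786 and 0.140. KRT18 stood between 14.31 and 15.02 on all 6 arrays (difference 0.12 ± 0.30, adjusted p = 1), and KRT8 differed by 0.69 ± 0.91 (adjusted p = 1), with Day 7 replicate 1 standing low at 6.26.

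Of 34 measured genes listed as secreted products of trophoblast 5 rose and 0 fell (limma, 6 and 3 at an unadjusted p below 0.05): PAG8, PAG11, TKDP1, TKDP4 and CGA, a count that stayed at 5 when each array was left out in turn. They are 14.7% of the list, beside 5.00% of rises over all genes. Which cells expressed CGA was not measured. IFNT2, an interferon tau gene, stood at 10.05, 9.82 and 10.90 at Day 7 and at 13.80, 11.95 and 10.89 at Day 13 (difference 1.96 ± 0.84, adjusted p = 0.253). Day 13 replicate 1 was the highest and replicate 3 lay level with the highest Day 7 pool, so the groups overlapped. PTGS2, the inducible prostaglandin synthase, stood at 9.95, 10.96 and 9.77 and at 11.20, 11.80 and 10.43 (adjusted p = 0.448), and PAG2 at 8.63, 7.36 and 9.31 and at 7.19, 7.92 and 7.19 (adjusted p = 0.680). The groups of PTGS2 and PAG2 overlapped as well.

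**Figure D2:**
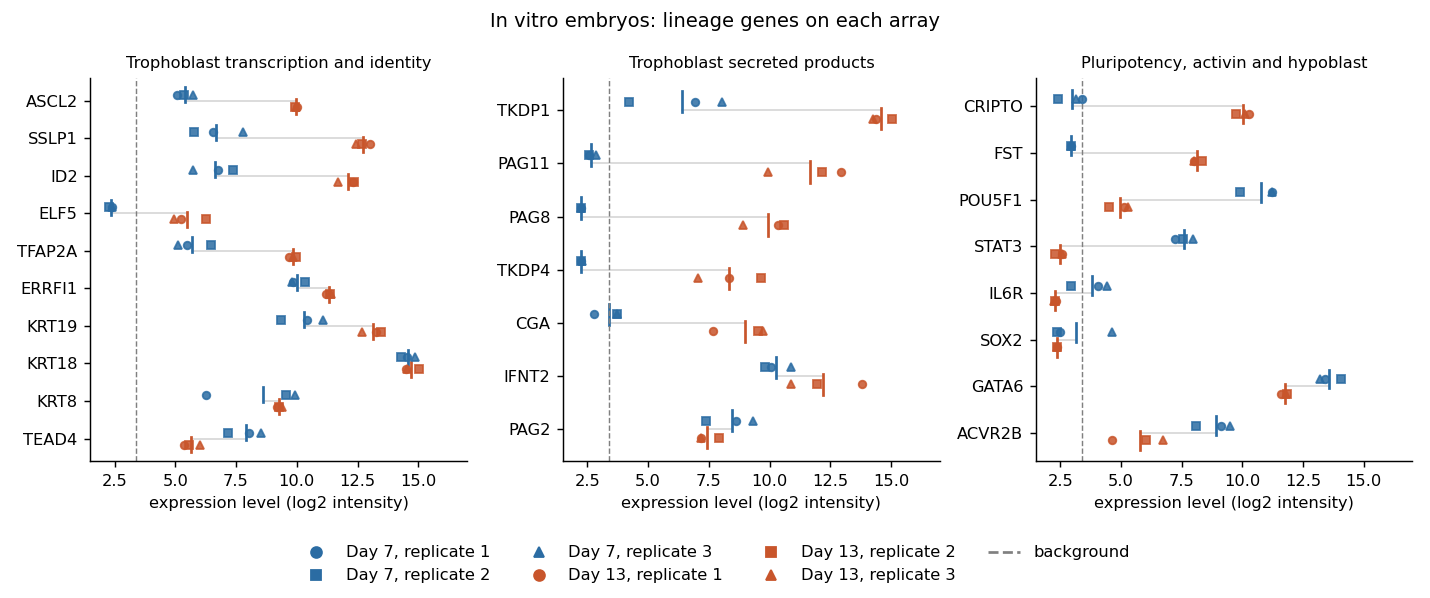
Log2 intensity of trophoblast identity genes (left), trophoblast secreted products (middle) and pluripotency, activin and hypoblast genes (right) on each of the 6 arrays, with group means as short bars and background at 3.39 as the dashed line. ASCL2, SSLP1, TKDP1 and CRIPTO lie apart between the days, whereas KRT18, IFNT2 and PAG2 overlap.

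Of 8 measured pluripotency genes 3 fell and 1, a co-receptor of NODAL, rose (37.5% and 12.5%, beside 5.77% and 5.00% over all genes). POU5F1, the pluripotency factor OCT4, stood at 11.22, 9.89 and 11.22 at Day 7 and at 5.13, 4.51 and 5.30 at Day 13, 55.7-fold lower (adjusted p = 0.00317). In RNA of whole conceptuses fewer cells of a type and less RNA per cell cannot be told apart. STAT3, which carries cytokine signals, fell from 7.22, 7.54 and 7.97 to background (at least 18.2-fold lower, adjusted p = 0.000183). IL6R, a subunit of the interleukin 6 receptor, fell at least 1.34-fold (adjusted p = 0.0341), and this call held in a single leave-one-out fit, the one that omitted Day 7 replicate 2 (adjusted p otherwise reaching 0.127). SOX2 exceeded background on 1 array, Day 7 replicate 3 at 4.64 (adjusted p = 0.776). CRIPTO, the NODAL co-receptor of the epiblast, rose from background to 10.27, 9.72 and 10.10 (at least 99.8-fold, adjusted p = 5.96e-06). GATA6, a hypoblast transcription factor, was the 1 of 11 hypoblast genes called: it stood at 13.41, 14.05 and 13.20 and at 11.60, 11.84 and 11.81 (3.50-fold lower, adjusted p = 0.0365), a call that held in none of the 6 leave-one-out fits (adjusted p reaching 0.128). The called share of the hypoblast list was 9.09%, beside 10.8% of all genes. Of 26 yolk sac plasma proteins 1, FETUB, rose (3.85% called). NANOG, CDX2 and GATA3 had no probe set assigned to them alone.

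The labels of whole embryos were checked against markers: the trophoblast markers KRT18, IFNT2, ASCL2 and TKDP1 exceeded background on all 6 arrays, and so did POU5F1 and GATA6. Other markers of these lineages did not: ELF5 was at background in all Day 7 pools, and SOX2 exceeded it on 1 array. Of 11 hypoblast genes 6 had the means of both days at background. Markers of other cells that a pool could carry were mostly at background on all 6 arrays. This held for 13 of 16 markers of the uterus, including PGR, ESR1, PAEP and SERPINA14, with summed linear intensities of 684 to 831 at Day 7 and 560 to 2900 at Day 13; limma called 0 of them, and 1 had an unadjusted p below 0.05. It held for 11 of 19 cumulus markers, including FSHR, CYP19A1 and AMH (1560 to 1830 and 1560 to 2100), of which AREG, HSD17B1 and STAR rose. Of 30 leukocyte markers 25 were at background on all arrays, including PTPRC, CD3E and LCP2; the sums were 6030 to 7520 and 165 to 193, and the 3 that fell were CD48, ZAP70 and FCGR2B. Of 10 erythrocyte markers 8, including HBA, ALAS2 and GATA1, were at background, while HBB and HBG fell; HBB stood at 8.49, 5.08 and 8.25 at Day 7 (adjusted p = 0.0157) and HBG at 9.0, 4.01 and 8.67 (adjusted p = 0.0419), so Day 7 replicates 1 and 3 were high. The HBG call held when Day 7 replicate 2 was omitted and in no other leave-one-out fit, and the HBB call held also without Day 13 replicate 3 (adjusted p otherwise reaching 0.147 and 0.0612). Of 19 endothelial and fibroblast markers 10, including VWF, CDH5 and COL1A1, were at background (sums 778 to 1660 and 340 to 468). Of 10 sperm markers 7 and of 13 oocyte and germline markers 9, including ZP2, GDF9 and BMP15, were at background (sums 893 to 1040 and 372 to 560, and 2300 to 3230 and 892 to 3140). Called lower were COL1A2 of the fibroblast list, ODF2 of the sperm list, and MAEL, FMR1NB and OOEP of the oocyte and germline list. The OOEP call held in none of the 6 leave-one-out fits. The ODF2 call held only without Day 7 replicate 3 or Day 13 replicate 3. The part of these cells in the other results was not tested.

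Of 40 measured chaperones and genes of the unfolded protein response 16 rose and 1 fell, beside shares of 5.00% and 5.77% over all genes, and their median log2 difference was 1.22. The list's mean level was 9.73, 9.63 and 9.82 at Day 7 and 11.46, 11.48 and 11.02 at Day 13, so the Day 13 pools were all higher and replicate 3 was the lowest of them. HSPA5, the main chaperone of the endoplasmic reticulum (ER), stood at 13.77, 13.94 and 13.99 and at 15.55, 15.54 and 15.54 (3.12-fold higher, adjusted p = 0.00119). HERPUD1, an ER stress protein of protein degradation, rose from 8.85, 8.77 and 8.16 to 12.81, 12.33 and 12.45 (15.3-fold, adjusted p = 0.000456). HSPH1, a large cytosolic heat shock protein, rose from 12.08, 12.43 and 12.19 to 15.76, 15.64 and 15.48 (10.5-fold, adjusted p = 0.00133). In all 3 genes the Day 13 pools lay close together and above all Day 7 pools. CRELD2, an ER disulfide isomerase, rose by 2.23 ± 0.28 (adjusted p = 0.00274) and HSPD1, the mitochondrial chaperonin, by 0.97 ± 0.15 (adjusted p = 0.00716). BAG3, a co-chaperone, rose by 5.13 ± 1.08 (adjusted p = 0.0250) and CALR, the calcium-binding chaperone calreticulin, from 4.53, 5.56 and 4.76 to 11.59, 10.19 and 8.09 (adjusted p = 0.0316); both calls held in 1 leave-one-out fit, the one that omitted Day 13 replicate 3 (adjusted p otherwise reaching 0.0939 and 0.114). Leaving out Day 7 replicates 1, 2 or 3 left 6, 9 and 9 rises in the list, and leaving out Day 13 replicates 1, 2 or 3 left 5, 6 and 15. With the poly-A covariate 1 rise was left, and the list's median was 0.92.

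Part of the machinery of the secretory pathway rose as well. Of 58 measured genes of protein translocation, glycosylation and ER to Golgi transport 13 rose and 0 fell in limma (31 and 1 at an unadjusted p below 0.05), with a median of 0.77. The rises were 22.4% of the list, beside 5.00% over all genes. OSTC, a subunit of the oligosaccharyltransferase, stood at 11.32, 11.21 and 11.25 at Day 7 and at 13.50, 13.15 and 12.71 at Day 13 (3.62-fold, adjusted p = 0.000890). ALG5, which makes the glucosyl donor for N-glycans, rose by 1.10 ± 0.12 (adjusted p = 0.00127). KDELR2, the receptor that returns proteins to the ER, rose by 1.70 ± 0.28 (adjusted p = 0.00851). ARF4, a small GTPase of the Golgi, rose by 1.67 ± 0.28 (adjusted p = 0.00995), and TRAM1, a translocon component, by 0.95 ± 0.17 (adjusted p = 0.0114). These 5 genes kept their call whichever single array was omitted. The list held 5, 12 and 7 rises without Day 7 replicates 1, 2 or 3, and 6, 6 and 20 without Day 13 replicates 1, 2 or 3. With replicate 3 as the only Day 13 array 2 genes were called and the median was 0.45, and with the poly-A covariate these were 1 and 0.39. FURIN, the protease that matures secreted proteins, is not in that list and rose by 1.60 ± 0.21 (adjusted p = 0.00357). WLS, the carrier that brings WNT proteins to the surface, rose from 10.33, 10.18 and 10.09 to 13.89, 14.06 and 12.71 (10.2-fold, adjusted p = 0.00430).

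Some genes that assemble ribosomes rose, whereas those that encode the ribosome's proteins were called in neither direction. Of 50 ribosome biogenesis genes 9 rose and 0 fell in limma (18 and 0 at an unadjusted p below 0.05, median 0.56). These 9 are 18% of the list, beside 5.00% of rises over all genes. DDX21, a nucleolar RNA helicase, stood at 8.60, 8.44 and 9.07 and at 10.55, 10.04 and 10.53 (1.67 ± 0.19, adjusted p = 0.00153), and WDR3, a component of the small subunit processome, rose by 1.61 ± 0.25 (adjusted p = 0.00697). The list held 3, 4 and 3 rises without Day 7 replicates 1, 2 or 3 and 3, 2 and 12 without Day 13 replicates 1, 2 or 3. Its median was 0.29 without Day 13 replicate 1 and 0.35 without Day 7 replicate 2, and under the poly-A covariate 0 genes rose, at a median of 0.26. Of 67 cytosolic ribosomal protein genes limma called 0 and the median was -0.12; 0 were higher and 4 lower at an unadjusted p below 0.05. By array their mean was 13.72, 13.42 and 14.01 at Day 7 and 13.57, 13.63 and 13.54 at Day 13, so the days overlapped. When the arrays were centred on this mean instead, the median difference of all probe sets became 0.14 and the list's median 0.03, and the biogenesis list held 9 rises with a median of 0.70.

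Of 49 genes of DNA replication 5 rose and 0 fell in limma (14 and 5 at an unadjusted p below 0.05, median 0.49). The share called was 10.2%, near the 10.8% of all genes. It was under the 17% of genes above background, although 46 of the 49 were above it. All of these calls were rises, beside 5.00% of rises over all genes. Of 43 genes of mitosis 0 rose and 1 fell (3 and 4 unadjusted), which is 2.33% called. PCNA, the sliding clamp of DNA polymerase, stood at 12.38, 12.14 and 12.20 at Day 7 and at 14.21, 13.80 and 13.21 at Day 13 (2.84-fold, adjusted p = 0.00821). CDC6, which loads the replicative helicase, rose from 7.29, 7.56 and 7.86 to 11.13, 10.90 and 10.12 (8.83-fold, adjusted p = 0.00106), and a second probe set was also called higher. PCLAF, a partner of PCNA, was among the largest rises, from 5.36, 6.47 and 5.95 to 11.37, 11.35 and 11.29 (42.4-fold, adjusted p = 0.000758). In each gene the days did not overlap, and for PCNA and CDC6 replicate 3 was the lowest Day 13 pool. Without Day 13 replicate 3 the replication list held 14 rises and 2 falls, and without any other array 2 to 4 rises; with replicate 3 alone it held 1, at a median of 0.06, and under the poly-A covariate 0, at a median of 0.08. GART, an enzyme of purine synthesis, rose by 2.51 ± 0.29 (adjusted p = 0.00178).

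**Figure D3:**
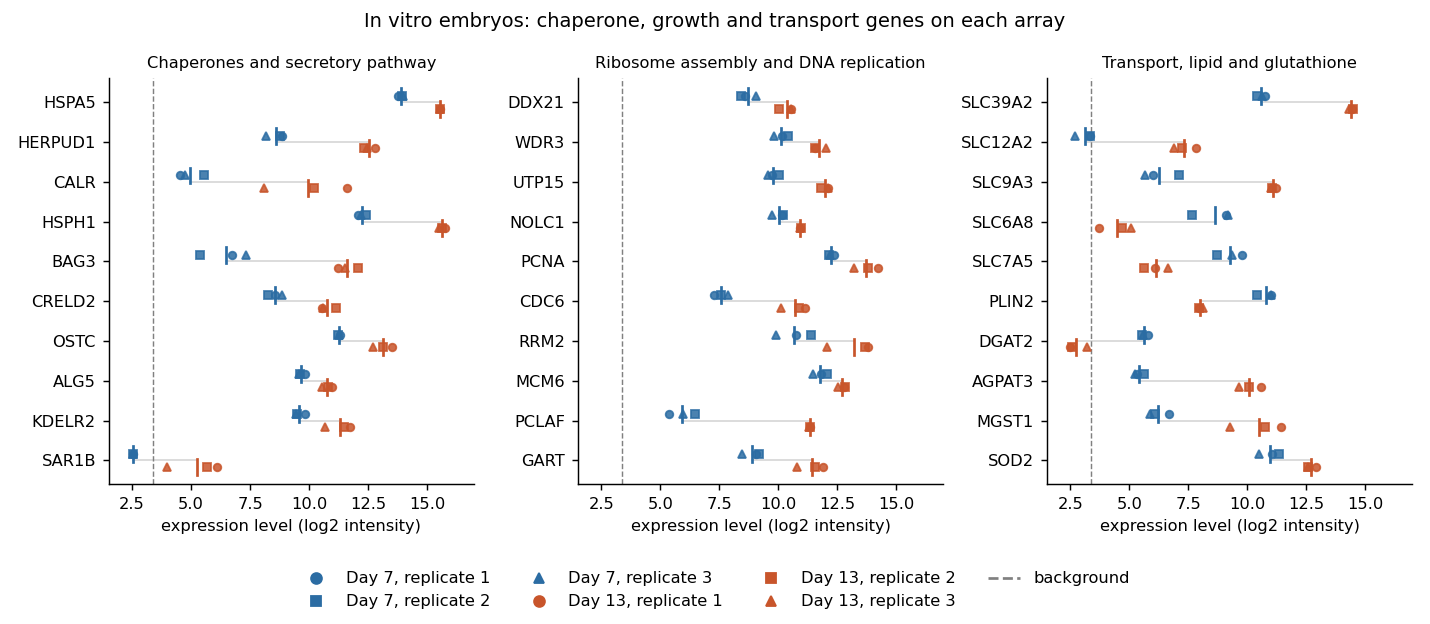
Log2 intensity on each of the 6 arrays of chaperone and secretory genes (left), genes of ribosome assembly and DNA replication (middle) and genes of transport, lipid and glutathione metabolism (right), with group means as short bars and background at 3.39 as the dashed line. Day 13 pools lie above Day 7 pools in the left and middle panels, closest together for HSPA5 and PCLAF and widest apart for CALR, while SLC6A8, SLC7A5, PLIN2 and DGAT2 on the right lie lower at Day 13.

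Of 23 measured genes of EGF signalling 5 rose and 2 fell (21.7% and 8.7%, beside 5.00% and 5.77% over all genes). AREG, the EGF receptor ligand amphiregulin, also a marker of cumulus cells, was at background at Day 7 and stood at 7.99, 5.38 and 6.72 at Day 13 (at least 9.88-fold, adjusted p = 0.00178). MYC, a growth transcription factor, went from background to 6.90, 7.38 and 6.45 (at least 11.4-fold, adjusted p = 7.67e-05), and NRAS, a Ras protein, rose by 1.38 ± 0.18 (adjusted p = 0.00335). GRB7, an adaptor of ERBB receptors, fell at least 2.61-fold (1 of 3 Day 13 pools above background, adjusted p = 0.00589). Of 28 genes of TGF-beta, activin and BMP signalling 5 rose and 1 fell (17.9% and 3.57%). FST, the activin antagonist follistatin, stood at 2.95 in each Day 7 pool and at 7.99, 8.33 and 8.03 at Day 13 (at least 26.4-fold, adjusted p = 0.000603). ID3, a target of BMP signals like ID2, went from background to 6.97, 6.74 and 6.01 (at least 9.08-fold, adjusted p = 0.00185). Of 19 genes of FGF signalling 2 rose (10.5%, near the 10.8% of all genes called), and 1 when any Day 7 array or Day 13 replicate 2 was omitted. KLB, the FGF co-receptor beta-klotho, rose from background to 8.03, 8.26 and 9.23 (at least 34.7-fold, adjusted p = 0.000109). In AREG and ID3, as in MYC, no Day 7 pool exceeded background and every Day 13 pool did. The Hippo pathway targets CCN1 and CCN2 rose: CCN1, a secreted matrix protein, from 7.51, 7.60 and 7.23 to 12.92, 12.61 and 11.55 (30.2-fold, adjusted p = 0.00638), while CCN2, its relative, rose by 2.97 ± 0.69 (adjusted p = 0.0359), a call that held in 1 leave-one-out fit, the one that omitted Day 13 replicate 3 (adjusted p otherwise reaching 0.127). Of 21 genes of IGF and insulin signalling limma called 0, while 2 were higher and 1 lower at an unadjusted p below 0.05.

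Among immune genes 4 of 32 rose and 4 fell (12.5% each, beside 5.00% and 5.77% over all genes). These counts were the same without any single array except that 5 rose without Day 13 replicate 3. IL1A, a cytokine of the interleukin 1 family, stood at 3.20, 3.32 and 3.09 at Day 7, at background, and at 7.64, 7.82 and 6.65 at Day 13 (at least 15.8-fold, adjusted p = 0.00167). IL18, another cytokine of that family, rose from 10.20, 10.39 and 10.01 to 12.13, 12.08 and 11.94 (adjusted p = 0.00646), and TNFRSF21, a death receptor, rose by 4.85 ± 0.59 (adjusted p = 0.00208). CFI, complement factor I, was at background at Day 7 and stood at 7.18, 8.68 and 6.73 at Day 13 (at least 17.6-fold, adjusted p = 0.000209). In these 4 rises every Day 13 pool exceeded every Day 7 pool, with replicate 3 the lowest at Day 13. FCGR2B, an immunoglobulin Fc receptor, fell from 5.57, 6.17 and 7.17 to 3.41, 3.41 and 3.92 (adjusted p = 0.00543). The falls were thus FCGR2B, CD48, ZAP70 and IL6. Of 25 interferon-stimulated genes 1, IFIT5, rose (at least 3.73-fold, adjusted p = 0.00192). That is 4%, near the 5.00% of all genes that rose.

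Of 186 solute carriers 16 rose and 9 fell, with a median of 0; these are 8.60% and 4.84%, near the 5.00% and 5.77% over all genes, so the values below are those of single genes. SLC39A2, a zinc importer, stood at 10.74, 10.41 and 10.62 at Day 7 and at 14.42, 14.48 and 14.31 at Day 13 (14-fold, adjusted p = 0.000865). SLC9A3, an apical sodium-proton exchanger, rose from 6.01, 7.11 and 5.67 to 11.23, 11.06 and 11.02 (28.6-fold, adjusted p = 0.000223). SLC12A2, the sodium-potassium-chloride cotransporter, was at background at Day 7 and at 7.82, 7.24 and 6.88 at Day 13 (at least 15.2-fold, adjusted p = 8.01e-05). For these the replicates of each day lay closer to each other than to the other day. SLC13A4, a sulfate transporter, rose by 4.79 ± 0.59 (adjusted p = 0.00233), with 2 further probe sets called in the same direction, and SLC16A3, a lactate exporter, by 3.98 ± 0.54 (adjusted p = 0.00386). SLC25A12, the mitochondrial aspartate-glutamate carrier, rose by 3.89 ± 0.34 (adjusted p = 0.000410), and SLCO4C1, an organic anion transporter, by 3.98 ± 0.47 (adjusted p = 0.00192). Of 17 amino acid transporters 0 rose and 2 fell in limma (2 and 2 at an unadjusted p below 0.05), 11.8% called and near the 10.8% of all genes. SLC1A4, a carrier of small neutral amino acids, fell from 4.50, 4.49 and 4.58 to background (at least 2.19-fold, adjusted p = 2.82e-05), and SLC7A5, the light chain of the leucine transporter, from 9.79, 8.72 and 9.34 to 6.10, 5.62 and 6.63 (adjusted p = 0.0117), a call that did not hold when Day 7 replicate 1 or Day 13 replicate 2 was omitted (adjusted p reaching 0.0524). Rises in the solute carrier list numbered 11, 17 and 11 without Day 7 replicates 1, 2 or 3 and 9, 10 and 25 without Day 13 replicates 1, 2 or 3, and falls 3, 7 and 5 and then 4, 3 and 12.

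Of 38 measured junction and channel genes 5 rose and 3 fell (13.2% and 7.89%, beside 5.00% and 5.77% over all genes). Besides GJA1, the gap junction protein GJB2 went from background to 7.61, 6.21 and 7.67 (at least 13.7-fold, adjusted p = 0.00498), whereas GJB5, a trophoblast connexin, fell from 8.21, 7.74 and 7.86 to 3.67, 3.88 and 5.15 (adjusted p = 0.00136). CLDN10, a tight junction claudin, fell from 9.57, 8.16 and 8.95 to 2.56, 2.65 and 3.82 (adjusted p = 0.000276), and PRKCZ, a kinase of the cell polarity complex, fell by 1.94 ± 0.27 (adjusted p = 0.00431). ATP1B1, the beta subunit of the sodium pump that fills the blastocoel, rose by 1.59 ± 0.23 (adjusted p = 0.00550). Of the 14 claudins measured 8 were above background and CLDN10 alone was called, a share under the 10.8% of all genes. Of 49 actin genes 3 rose and 5 fell (6.12% and 10.2%, beside 5.00% and 5.77% over all genes). As 45 of the 49 were above background, the 16.3% called is near the 17% of all genes above it. TPM1, a tropomyosin, stood at 12.82, 12.71 and 12.46 and at 9.32, 9.57 and 10.17 (7.86-fold lower, adjusted p = 0.000283). ACTN1, the actin cross-linker alpha-actinin 1, fell 9.35-fold (adjusted p = 0.00101), and TPM4, another tropomyosin, fell by 1.47 ± 0.24 (adjusted p = 0.00934). AIF1L and FMNL2, an actin-binding protein and a formin, were among the largest falls: AIF1L went from 9.55, 8.65 and 9.54 to background (at least 57.9-fold, adjusted p = 1.42e-05) and FMNL2 from 9.22, 10.08 and 9.38 to 2.58, 2.97 and 4.18 (adjusted p = 0.00131). The rises among actin genes numbered 6 without Day 13 replicate 3 and 1 without any other array, and the falls 3 to 5. The protease inhibitors TIMP2 and TIMP1 fell: TIMP2, which blocks matrix metalloproteases, from 10.82, 10.35 and 11.18 to 5.36, 5.25 and 6.01 (37.9-fold, adjusted p = 0.000700), and TIMP1 by 4.79 ± 0.90 (adjusted p = 0.0157), a call that did not hold when Day 7 replicate 1 or 3 was omitted (adjusted p reaching 0.0661). Of 44 basement membrane and collagen genes 2 rose and 3 fell (11.4% called, near the 10.8% of all genes); COL12A1, a fibril-associated collagen, fell from 7.40, 7.22 and 7.69 to 2.23, 2.59 and 4.57 (adjusted p = 0.00396), and PLOD2, a collagen lysyl hydroxylase, rose by 2.84 ± 0.39 (adjusted p = 0.00401).

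**Figure D4:**
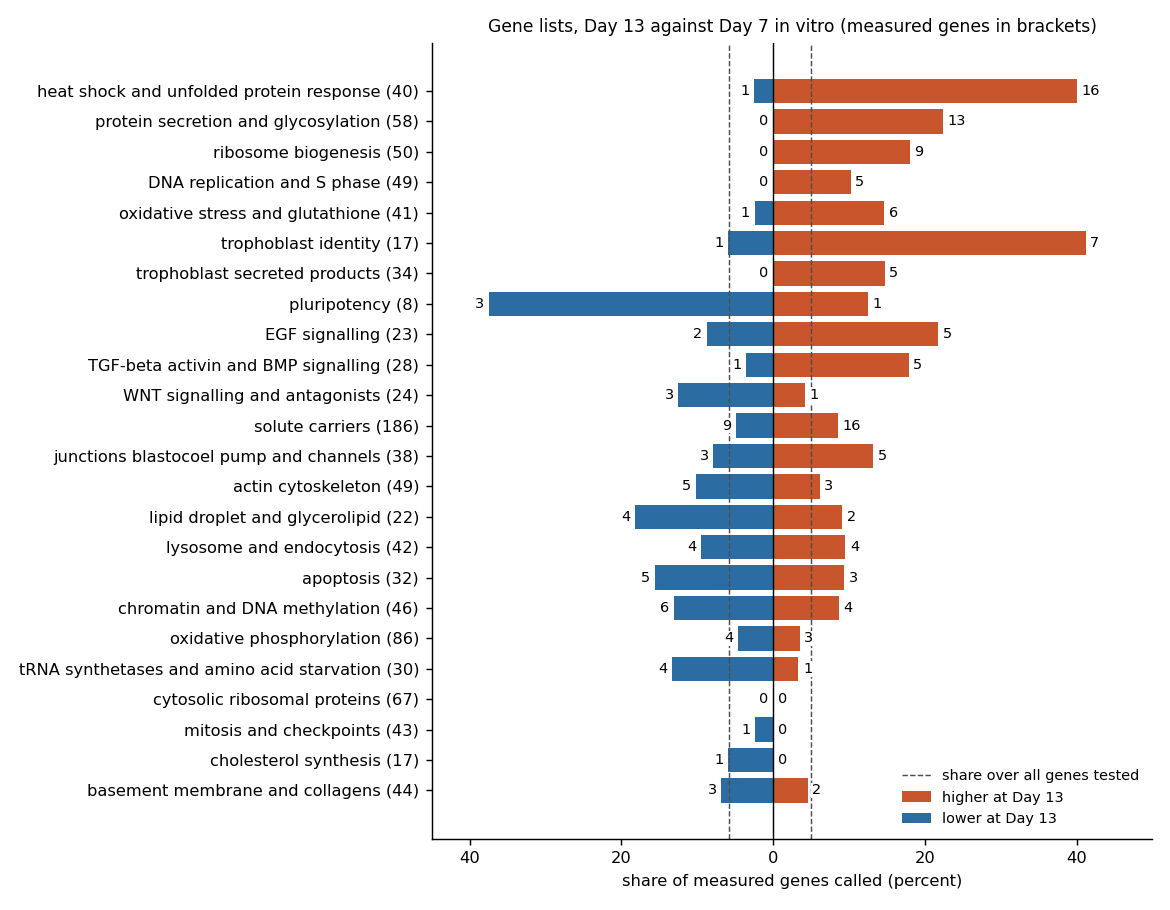
Share of the measured genes of each list called higher (orange, right) or lower (blue, left) at Day 13 than at Day 7 in vitro, in percent; numbers at the bars are called genes, numbers in brackets are measured genes, and the dashed lines are the shares over all genes tested, 5.00% higher and 5.77% lower. The chaperone list has 16 of 40 genes higher and the secretion list 13 of 58, whereas cytosolic ribosomal proteins have none.

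Lipid, glutathione and intermediary metabolism also changed in single genes. PLIN2, the coat protein of lipid droplets, stood at 11.01, 10.40 and 11 at Day 7 and at 7.97, 7.95 and 8.14 at Day 13 (6.90-fold lower, adjusted p = 0.000603). DGAT2, which completes triglyceride synthesis, fell from 5.78, 5.55 and 5.56 to background (at least 4.73-fold, adjusted p = 0.000293), and AGPAT5, an acyltransferase, fell by 1.83 ± 0.31 (adjusted p = 0.00962). AGPAT3, another acyltransferase of phosphatidic acid synthesis, rose from 5.34, 5.63 and 5.24 to 10.57, 10.05 and 9.65 (25.8-fold, adjusted p = 1.77e-05). The lipid droplet and glycerolipid list thus held 4 falls and 2 rises among 22 genes (18.2% and 9.09%, beside 5.77% and 5.00% over all genes). Both directions thus occurred among the acyltransferases, and for PLIN2 and AGPAT3 the replicates of a day lay far from the other day. ELOVL7, a fatty acid elongase, rose from background to 7.29, 7.11 and 8.15 (at least 17.5-fold, adjusted p = 0.000912), and ME1, malic enzyme, from 4.02, 4.02 and 3.99 to 7.35, 8.38 and 8.94 (18.5-fold, adjusted p = 0.000627). SMPD1 and PSAP, lysosomal proteins of sphingolipid breakdown, fell by 3.86 ± 0.34 and 1.53 ± 0.16 (adjusted p = 0.000435 and 0.000903); other probe sets for PSAP differed by 0.50 and, called, by -1.03. Of 41 genes of oxidative stress and glutathione 6 rose and 1 fell (14.6% and 2.44%). MGST1, a microsomal glutathione transferase, rose from 6.68, 6.08 and 5.86 to 11.44, 10.77 and 9.26 (19.5-fold, adjusted p = 0.00242), and MGST2 by 2.96 ± 0.38 (adjusted p = 0.00281), while PRDX4, a peroxiredoxin of the ER, fell by 0.89 ± 0.10 (adjusted p = 0.00121). That list held 3, 5 and 3 rises without Day 7 replicates 1, 2 or 3 and 2, 2 and 9 without Day 13 replicates 1, 2 or 3. Of 86 genes of oxidative phosphorylation 3 rose and 4 fell (median -0.33), with 1 to 4 rises and 0 to 10 falls when single arrays were omitted. The share called was 8.14%, under the 10.8% of all genes. Of 17 genes of cholesterol synthesis 0 rose in limma (0 rises and 4 falls at an unadjusted p below 0.05). FDFT1, squalene synthase, fell by 1.75 ± 0.30 (adjusted p = 0.0102) and alone was called (5.88%). CA2, a carbonic anhydrase, rose from background to 7.39, 7.27 and 7.47 (at least 15.8-fold, adjusted p = 6.01e-05), and EPAS1, the hypoxia factor HIF-2 alpha, by 2.68 ± 0.41 (adjusted p = 0.00644). BNIP3 and BNIP3L, mitophagy receptors that hypoxia induces, fell by 2.0 ± 0.23 and 2.77 ± 0.25 (adjusted p = 0.00150 and 0.000446).

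The in vivo embryos share no array with this comparison. From Day 7 to Day 13 in vivo 911 probe sets were called (3.79%), 408 higher and 503 lower, and 503 genes (5.49%). Higher in both origins were 180 probe sets, 21.1% of the in vitro rises and 44.1% of the in vivo rises, and lower in both were 282, 29.6% and 56.1%. Called in opposite directions were 3. Of the 50 genes named above 39 were called in the same direction in vivo; those that were not included PAG11 (in vivo 3.30 ± 1.17, adjusted p = 0.223), POU5F1 (-1.64 ± 0.76, 0.403), CHPT1 (1.89 ± 0.51, 0.104) and KLF13 (-2.08 ± 0.77, 0.251), for none of which the difference between the origins passed the test (adjusted p = 0.252, 0.204, 0.0652 and 0.164).

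The difference of the day effect itself was called for 96 probe sets (0.400%), 59 of them among the 1804, and for 47 genes (0.513%), 26 of which were also called in vitro. The differences that follow set a group wholly at background to the background, while their SE and adjusted p are those of the fit to the deposited values. CD48 fell further in vitro than in vivo, by -5.84 ± 0.40 (adjusted p = 0.000902): in vivo it went from 12.01 ± 0.18 (standard deviation, SD, n = 3) to 8.89 ± 0.63 and so was still expressed at Day 13. TRIB2 likewise stood at 8.76 ± 0.53 at Day 13 in vivo (difference -5.41 ± 0.72, adjusted p = 0.0219), and TIMP2, which fell in vitro, differed in vivo by -0.23 ± 0.51 (adjusted p = 1; difference of the day effects -5.02 ± 0.72, adjusted p = 0.0324). BEX4, an adaptor of the BEX family, fell from 7.74, 5.94 and 7.77 to 3.26, 3.92 and 5.43 in vitro (adjusted p = 0.0361) and rose in vivo by 5.96 ± 0.68 (adjusted p = 0.00235; difference -8.90 ± 0.97, adjusted p = 0.00833). DKK3, a secreted protein of the dickkopf family, did so too. It fell to background in vitro (at least 2.37-fold, adjusted p = 0.0182). In vivo its deposited values rose by 3.42 ± 0.41 (adjusted p = 0.00280), a rise that counts Day 7 levels under background. The day effects of DKK3 differed by -5.51 ± 0.58 in the deposited values (adjusted p = 0.00671), and by -4.03 with groups at background set to it. The in vitro falls of BEX4 and DKK3 held only when the omitted in vitro array was Day 7 replicate 2 or Day 13 replicate 3 (adjusted p otherwise reaching 0.134 and 0.0749), whereas their differences between the origins passed whichever single array was omitted. NOS2, inducible nitric oxide synthase, fell from 7.89, 8.82 and 7.62 to 3.63, 3.63 and 4.33 in vitro (adjusted p = 0.000352), by -3.82 ± 0.51 more than in vivo (adjusted p = 0.0237). MAEL, a gene of germ cells and of transposon control, fell from 6.47, 6.93 and 6.35 to background in vitro (at least 9.16-fold, adjusted p = 3.58e-05), and in vivo it already stood at 3.40 ± 0.47 at Day 7 (difference -3.18 ± 0.32, adjusted p = 0.00528). On the side of the rises, CFI and CD69 stayed at background in both in vivo groups (differences 4.14 ± 0.58 and 1.29 ± 0.31, adjusted p = 0.00833 and 0.0202), and the rise of SLC12A2 was larger in vitro by 3.69 ± 0.39 (adjusted p = 0.0125). The differences of TRIB2, TIMP2, NOS2 and CD69 did not pass with every array omitted in turn, and their adjusted p reached 0.0731, 0.0937, 0.0700 and 0.0686. Without Day 13 in vitro replicate 3 the count of probe sets rose from 96 to 1083, and with the poly-A covariate it was 11. The poly-A control mean was 14.57, 14.53 and 14.25 in the Day 13 in vivo arrays, above all 3 Day 13 in vitro arrays. As the control was low in the Day 13 in vitro group alone, the covariate overlaps with the difference between the origins as well. The part of the control in that difference was not tested beyond the covariate.

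**Figure D5:**
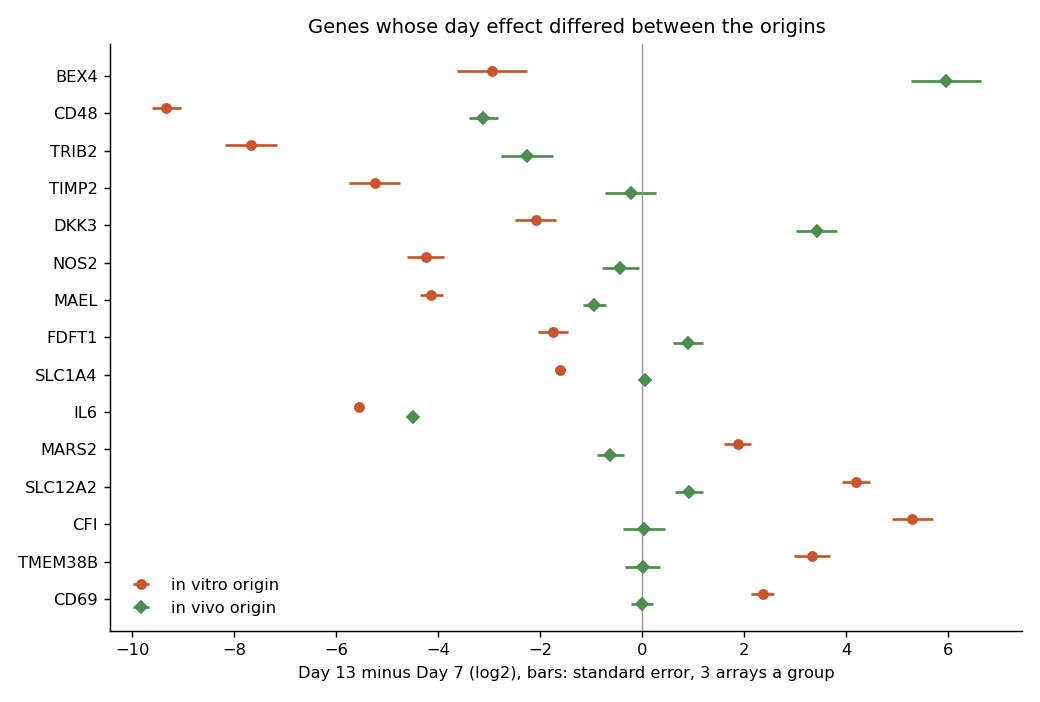
Log2 difference between Day 13 and Day 7 (x axis) in embryos of in vitro (circles) and in vivo origin (diamonds) for 15 genes whose day effect differed between the origins, from the deposited values, with standard errors of the fit as bars and 3 arrays in each group. BEX4 and DKK3 lie on opposite sides of 0, and CFI, TMEM38B and CD69 have in vivo points near 0 and in vitro points above it.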

How the data were processed

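The data were log2 intensities of Affymetrix bovine arrays, as deposited by the authors in one table of 12 arrays with 24128 probe sets. The submitters' processing notes name RMA, GCRMA and limma, with versions and order not given in the sources used here, and no detection calls are in the table. The 112 array controls were set aside. The lowest probe sets lie at a floor of 2.23, which compresses folds of low genes.

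From these values limma 3.58.1 in R 4.3.3 fitted 4 group means over the 12 arrays, tested Day 13 minus Day 7 in vitro and its difference from in vivo (two-sided, empirical Bayes without trend), and adjusted p over 24016 probe sets (Benjamini-Hochberg, 0.05). The number of arrays limits the precision: 8 residual degrees of freedom, and a prior of 0.379. Symbols came from the platform annotation: 13292 probe sets had exactly 1 symbol and 10724 several or none, and the brightest over all arrays stood for each of 9155 genes. A second probe set can disagree. Named genes were the 25 largest rises and falls among called genes without overlap of the groups, up to 8 called members of each list described by adjusted p, the 8 largest differences between origins in each direction, and 25 preset genes, of which 22 were measured. Genes named outside this rule are said to be so. Members, lists and tests were chosen with earlier results of these data known. The procedure was tested on simulated data with independent noise for each probe set and no shift of whole arrays. That test does not bear on the differences among the Day 13 arrays.

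Same-numbered pools of the 2 in vitro groups did not pair: the correlations of their deviations were 0.125, -0.0518 and 0.0827. Alternatives were other normalizations and centrings, a filter on dim probe sets, moderation, array weights, a replicate block, control measures as covariates, fewer arrays and a stricter threshold. Sequences were not used here.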

Additional observations from a re-analysis of the deposited data

Results flagged for a closer look

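The log2 difference between Day 13 and Day 7 was not the same in vitro and in vivo for 20 named genes, by the limma test of the difference itself with Benjamini-Hochberg adjustment over all probe sets. The values are the in vitro minus the in vivo difference, with a group wholly at background set to the background. On the negative side were BEX4 (-8.9), CD48 (-5.84), TRIB2 (-5.41), TIMP2 (-5.02), DKK3 (-4.03), NOS2 (-3.82), MAEL (-3.18), FMR1NB (-2.86), FDFT1 (-2.65), SLC1A4 (-1.13), PRDX4 (-0.849) and IL6 (-0.824). On the positive side were CFI (4.14), SLC12A2 (3.69), TMEM38B (2.61), TMEM106C (2.58), MARS2 (2.49), DHX32 (1.54), CD69 (1.29) and OSR2 (0.805).

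Of these 20, the 10 that passed whichever single array was omitted were BEX4, CD48, DKK3, MAEL, SLC1A4, IL6, CFI, SLC12A2, DHX32 and OSR2, with adjusted p of at most 0.0343. For MAEL and FMR1NB the difference lay at Day 7: MAEL stood at 6.59 in vitro and 3.40 in vivo, and FMR1NB, a testis antigen gene, at 6.25 and 2.42. IL6 fell to background in both origins, so the size of its difference follows from the Day 7 levels of 7.90, 7.87 and 7.68 in vitro and a mean of 6.99 in vivo. The causes were not tested.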

How the results depend on the processing

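Of the 1804 probe sets called in vitro, the count was 1742 after quantile normalization, 1985 after median centring, 2157 after centring on ribosomal protein genes (52.5% higher against 47.2%) and 1798 with the GAPDH 3 prime to 5 prime difference as a covariate. It was 702 at an adjusted p below 0.01, 2886 with the 10591 probe sets above background on 3 or more arrays, 1129 with trend and robust moderation, 8237 with array weights (whose iteration did not converge), 197 with the poly-A covariate, 787 in a fit of the 6 arrays alone and 902 with replicate 3 as the only Day 13 array (70.3% higher). Leaving out one array gave 913 to 2898 calls, and 56.5% of calls were rises in the fit without Day 13 replicate 3. The difference between origins, 96 probe sets (36.5% on the positive side), had 88 after quantile normalization, 131 after median centring, 183 after centring on ribosomal protein genes (72.7% on the positive side), 278 with the filter, 20 with trend and robust moderation, 460 with weights, 11 with the poly-A covariate, 175 with the GAPDH covariate and 64 to 1083 with one array left out.

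With the replicate number as a block, 1212 probe sets were called in vitro, 1184 of them among the 1804, and 47 for the difference between origins; the numbers did not pair the pools.

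Of 262 named calls 155 passed whichever array was omitted, 262 passed with median centring, 243 with quantile normalization, 198 with the block, 138 with the 6 arrays alone, 113 with replicate 3 alone and 59 with the poly-A covariate. Taking the mean over probe sets above background turned the sign of NDUFB2 (-0.117, adjusted p = 0.785) and PRDX6 (-0.0812, adjusted p = 0.889). The causes were not tested. Of 24016 probe sets 12693 were at background on all 6 arrays, where a difference cannot be read as one of expression. The called probe sets held 6 rises and 6 falls of this kind.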

Other observations

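Of 46 chromatin genes, not described so far, 4 rose and 6 fell (8.70% and 13%, beside 5.00% and 5.77% over all genes). Above background were 42 of the 46, and the 21.7% called stands beside 17% of all genes above it. When single arrays were omitted 2 to 5 rose and 3 to 8 fell. HAT1, which acetylates new histone H4, stood at 11.07, 11.61 and 11.31 at Day 7 and at 12.88, 12.77 and 12.68 at Day 13 (1.45 ± 0.16, limma adjusted p = 0.00131), and H2AZ1, a histone variant, rose by 0.57 ± 0.09 (adjusted p = 0.00743). KDM5C, an X-linked demethylase of histone H3, fell from 9.42, 8.72 and 9.40 to 5.51, 5.88 and 7.29 (adjusted p = 0.00940), and H3-3A, a replacement histone, fell from 13.65, 13.66 and 13.60 to 11.31, 11.91 and 12.67 (adjusted p = 0.0114). In the falls of KDM5C and H3-3A Day 13 replicate 3 lay nearest to Day 7. HDAC1, a histone deacetylase, fell by 1.10 ± 0.21 (adjusted p = 0.0159). Of 32 apoptosis genes 3 rose and 5 fell (9.38% and 15.6%, and 2 to 6 and 4 to 6 genes when single arrays were omitted). CASP6, an executioner caspase, rose by 1.69 ± 0.22 (adjusted p = 0.00339) and PERP, a target of p53, by 1.28 ± 0.20 (adjusted p = 0.00743), while BAD, a pro-apoptotic BCL2 relative, fell by 2.07 ± 0.34 (adjusted p = 0.00881) and TP53INP1, another p53 target, by 1.89 ± 0.22 (adjusted p = 0.00162).

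Of 42 genes of lysosome and endocytosis 4 rose and 4 fell (9.52% each, beside 5.00% and 5.77% over all genes), with 0 to 6 rises when single arrays were omitted. As 38 of the 42 were above background, the 19% called is near the 17% of all genes above it. Of 15 genes of steroid synthesis 2 rose (13.3%). CTSV, a cathepsin, fell from 14.18, 14.11 and 14.07 to 11.98, 12.80 and 12.59 (adjusted p = 0.00357), and LGMN, the protease legumain, from 10.37, 9.68 and 9.14 to 6.28, 6.69 and 7.62 (adjusted p = 0.00495); of 18 cathepsins and cystatins these 2 fell (11.1%, near the 10.8% of all genes called) and 0 rose in limma (2 and 2 at an unadjusted p below 0.05). HSD17B1, an estrogen-forming dehydrogenase, was at background at Day 7 and stood at 8.54, 8.08 and 5.46 at Day 13 (at least 15.7-fold, adjusted p = 0.00519), and STAR, which delivers cholesterol for steroid synthesis, rose from 4.84, 5.11 and 4.25 to 8.61, 9.01 and 7.57 (adjusted p = 0.00725). For both, which are also on the list of cumulus markers, replicate 3 was the lowest Day 13 pool. Iron genes were put together after their values were seen: beside the rise of CYBRD1 and the fall of STEAP3, the transferrin receptor TFRC stood at 10.89, 10.96 and 10.34 and at 8.48, 7.49 and 8.65 (adjusted p = 0.0135, and 0.0574 without Day 7 replicate 1), and SLC11A2, an iron importer, rose by 2.39 ± 0.50 (adjusted p = 0.0244, reaching 0.0969 when single arrays were omitted). ANXA3, an annexin, had the widest Day 13 spread of the genes in these paragraphs, 6.03, 5.91 and 9.02 after 10.96, 11.47 and 10.93 at Day 7 (adjusted p = 0.0124).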
